A study of Arabidopsis thaliana with 42 samples.

Results

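The mitochondrial genome of Arabidopsis thaliana is represented in the total RNA tables by 146 genes, chosen by a single rule, that the identifier begins with ATMG, out of 33604 genes in all. The 3 ribosomal RNA genes among them, ATMG00020, ATMG01380 and ATMG01390, were kept apart, which left 143 genes. Wild-type leaves were sampled every 2 days, with ages in days after emergence running from day 4 to day 30. Each of the 14 ages has 1 total RNA library in set 1 and 1 in set 2, which makes 28 libraries. Days 26, 28 and 30 are called old here, days 14, 16 and 18 mature, and days 4, 6 and 8 young, with 6 libraries in each stage. No mutant, transgene or treatment is named for any library, and the labels do not say how many plants went into one. The sets are described as independent biological replicates with no word on what was kept apart, so the p-values below rest on the spread between these libraries alone.

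Plant mitochondria keep a small genome of their own. It encodes a minority of the subunits of the respiratory chain and of the ATP synthase, some proteins of the mitochondrial ribosome, and proteins that mature cytochrome c; the nuclear genome encodes the rest. The respiratory chain passes electrons to oxygen, and the ATP synthase makes ATP from the resulting proton gradient. In a senescing leaf the chloroplasts are taken apart while mitochondria go on supplying energy. The deposited tables hold identifiers without names. The RefSeq gene table used here (TAIR10.1) lists 33 protein-coding mitochondrial genes by symbol but pairs none of them with an ATMG identifier, so the genes are given by identifier and by pattern, with no name or product.

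Values are FPKM, fragments per kilobase of transcript scaled to the mapped fragments of a library, summed over the transcripts of a gene. Read depth cannot be read from FPKM, and an exact 0 may be a failed estimate. The labels do not say how RNA was selected before sequencing; most mitochondrial transcripts of plants lack a stable poly(A) tail, and the effect of selection was not tested. In a leaf, fewer cells of a type and less RNA in each cell cannot be told apart.

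The summed FPKM of the library from day 4 in set 1 was 331479, and the remaining 27 libraries summed to between 439949 and 484348. Over the tested mitochondrial genes this library correlated with its counterpart in set 2 at r = 0.927, and the libraries of the other days with theirs at r = 0.978 to 0.990 (log2 scale, across genes). The leaf markers RBCS1A, RCA and LHCB3 summed to 1373 FPKM in old leaves, against 6458 FPKM in young leaves, with 323 FPKM in the lowest library. The senescence marker SAG12 averaged 1531 FPKM in old leaves, against 0.0318 FPKM in young leaves. Marker sums for root, flower and seed stayed at or under 6.72, 1.90 and 7.27 FPKM in every library.

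A gene entered the tests if it reached 1 FPKM in at least 2 libraries. Of the 143 genes 91 did, among 18239 genes in all. Of the other 52, 13 were listed at 0 in all 28 libraries, and 39 lay above 0 in at least 1 library with a highest value of 3.19 FPKM.

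The levels of the mitochondrial genes were very unequal. ATMG01190 had the highest mean, 1167 ± 319 FPKM (SD, n = 28), and stood above the next gene in 28 of 28 libraries. It made up 18.0% of the summed FPKM of the 143 genes, called the mitochondrial sum below. Next in order came ATMG00480 with 577 ± 101 FPKM and ATMG01360 with 569 ± 131 FPKM. These neighbours did not separate, since ATMG00480 was the higher of the pair in only 12 of 28 libraries.

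Below them stood ATMG01200 at 346 ± 102 FPKM, ATMG00220 at 313 ± 89.6 FPKM and ATMG00410 at 261 ± 32.6 FPKM. ATMG00730 at 244 ± 90.3 FPKM and ATMG01080 at 235 ± 58.0 FPKM overlapped widely, with ATMG00730 above in 10 of 28 libraries. The 10 highest genes of a library held between 61.2% and 67.9% of its mitochondrial sum. At the other end, 8 of the 91 tested genes had means under 1 FPKM, where the pseudocount of 1 shrinks any change, and 49 had means of at least 10 FPKM.

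By the mean of the sets, the mitochondrial sum was lowest at day 8, highest at days 22 to 26, and lower again at day 30. It stood at 4642 FPKM in set 1 and 4706 FPKM in set 2 at day 8, at 8166 and 7947 FPKM at day 22, at 9106 and 7601 FPKM at day 26, and at 6606 and 5634 FPKM at day 30. Old leaves averaged 7409 ± 1354 FPKM and young leaves 4933 ± 335 FPKM (SD, n = 6 each). The lowest old library, at 5634 FPKM, lay just above the highest young library, at 5501 FPKM.

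Against nuclear RNA the mean of the sets was also lowest at day 8 and highest at days 22 to 26, but the stages overlapped. The mitochondrial sum came to 1.23% of the summed nuclear FPKM at day 8 and 2.06% at day 24 (means of the sets). At day 30 it came to 1.61% in set 1 and 1.32% in set 2. The latter lay below both libraries of day 6, with 1.38% in set 1 and 1.37% in set 2. The library of day 4 in set 1 stood apart, with 2.29%, the highest of all 28 libraries, and its counterpart in set 2 had 1.25%. Old leaves averaged 1.80 ± 0.354% and young leaves 1.46 ± 0.413% (SD, n = 6 each), and without day 4 the young mean was 1.30 ± 0.0834% (n = 4). No test was made on these sums. Chloroplast-encoded RNA, which enters the FPKM scale but not the nuclear sum, averaged 7.94% of all FPKM in old leaves and 19.9% in young leaves; its part in the FPKM changes was not tested.

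**Figure D1:**
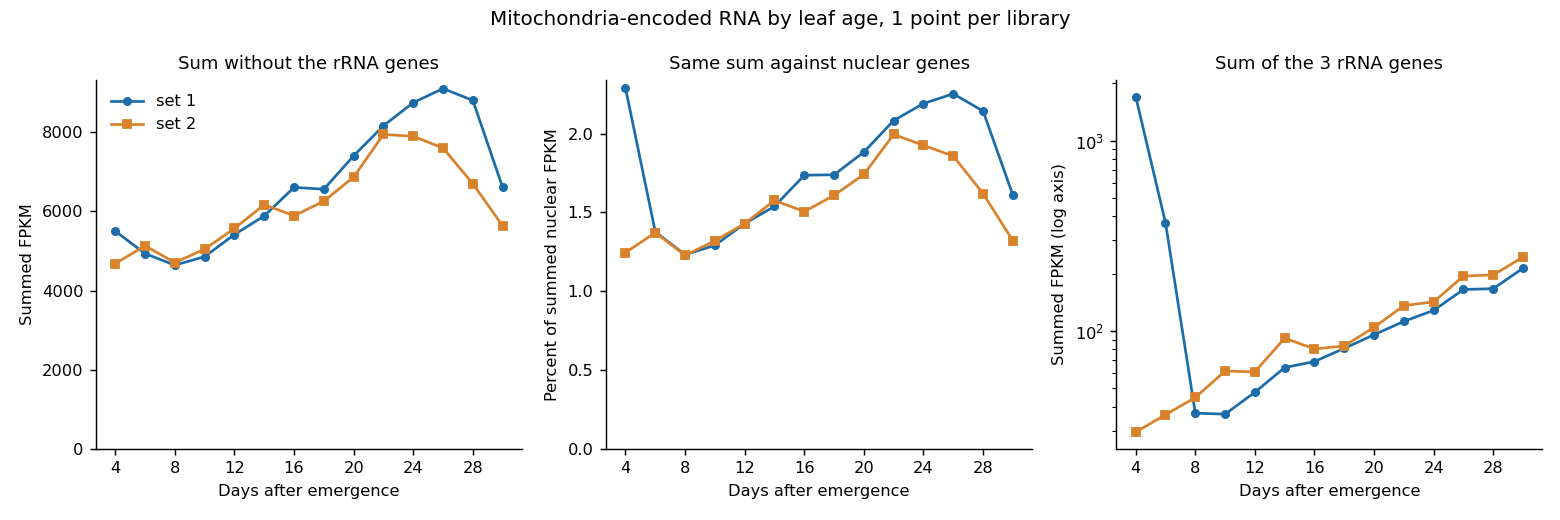
Summed FPKM of the 143 mitochondrial genes without rRNA (left), the same sum as a percent of summed nuclear FPKM (middle) and summed FPKM of the 3 rRNA genes on a log axis (right), by days after emergence, with 1 point per library and a line per set. The sum stood at 9106 FPKM in set 1 and 7601 FPKM in set 2 at day 26, and the rRNA sum reached 1702 FPKM in the library of day 4 in set 1.

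Most mitochondrial genes changed with age by limma's test on log2(FPKM + 1). In the F test over all 14 days 68 of the 91 tested genes passed (adjusted p under 0.05 over all 18239 genes), where 91.0% of all tested genes passed. In old against young leaves 52 of the 91 were higher and 1 was lower, where 60.0% of all tested genes were higher and 25.5% lower. The median change of the 91 was 0.50 on the log2 scale and that of all tested genes 0.59. With the library of day 4 in set 1 left out, 59 were higher and 1 lower, and with that of day 4 in set 2 left out, 55 were higher and 5 lower.

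The largest rise was that of ATMG00590. It had 33.4, 47.0 and 67.9 FPKM as lowest, median and highest of the 6 old libraries, against 4.04, 6.38 and 13.6 FPKM of the 6 young libraries. All old libraries lay above all young ones. The change was 2.59 ± 0.12 on the log2 scale (SE, adjusted p = 6.2e-13), with 2.60 in set 1 and 2.59 in set 2.

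ATMG01350 followed, with 34.3, 42.9 and 50.2 FPKM in old libraries, against 2.84, 12.4 and 16.1 FPKM in young libraries (1.95 ± 0.20, adjusted p = 3.28e-08). ATMG00690 had 177, 198 and 237 FPKM in old libraries, against 47.4, 57.2 and 76.9 FPKM in young libraries (1.76 ± 0.09, adjusted p = 2.02e-12). ATMG01220 had 117, 189 and 241 FPKM in old libraries, against 17.0, 58.4 and 80.6 FPKM in young libraries (1.75 ± 0.25, adjusted p = 3.84e-06). None of these 3 overlapped between the stages, but the sets differed in size for ATMG01220, with 2.34 in set 1 and 1.16 in set 2.

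Of the 10 genes with the highest means ATMG00730 rose most. It had 337, 357 and 412 FPKM in old libraries, against 99.2, 143 and 159 FPKM in young libraries. All old libraries lay above all mature ones (192 to 239 FPKM), and all mature above all young ones. The change was 1.43 ± 0.09 (adjusted p = 7.85e-11).

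ATMG00900, at a much lower level, had 8.89, 12.8 and 18.2 FPKM in old libraries, against 3.39, 4.28 and 5.87 FPKM in young libraries, with no overlap (1.37 ± 0.13, adjusted p = 1.16e-08). ATMG00220 had 348, 380 and 510 FPKM in old libraries, against 177, 200.4 and 212 FPKM in young libraries (1.04 ± 0.10, adjusted p = 8.48e-09). Here too every old library was above every young one. ATMG00960 averaged 33.6 FPKM in old and 15.6 FPKM in young leaves (1.11, adjusted p = 4.78e-08), and ATMG01270 averaged 42.0 ± 18.8 and 18.8 ± 3.09 FPKM (0.99, adjusted p = 1.04e-08).

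For the most abundant gene, ATMG01190, old libraries held 1067, 1381 and 1811 FPKM, against 748, 762 and 1288 FPKM in young libraries (0.76 ± 0.10, adjusted p = 1.36e-06). The only young library above any old one was that of day 4 in set 1. For ATMG01360 old libraries held 638, 680 and 711 FPKM, against 147, 437 and 501 FPKM in young libraries (0.87 ± 0.16, adjusted p = 4.27e-05). The stages did not overlap, and the young minimum is again the library of day 4 in set 1, with the other young libraries at 395 FPKM or more.

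**Figure D2:**
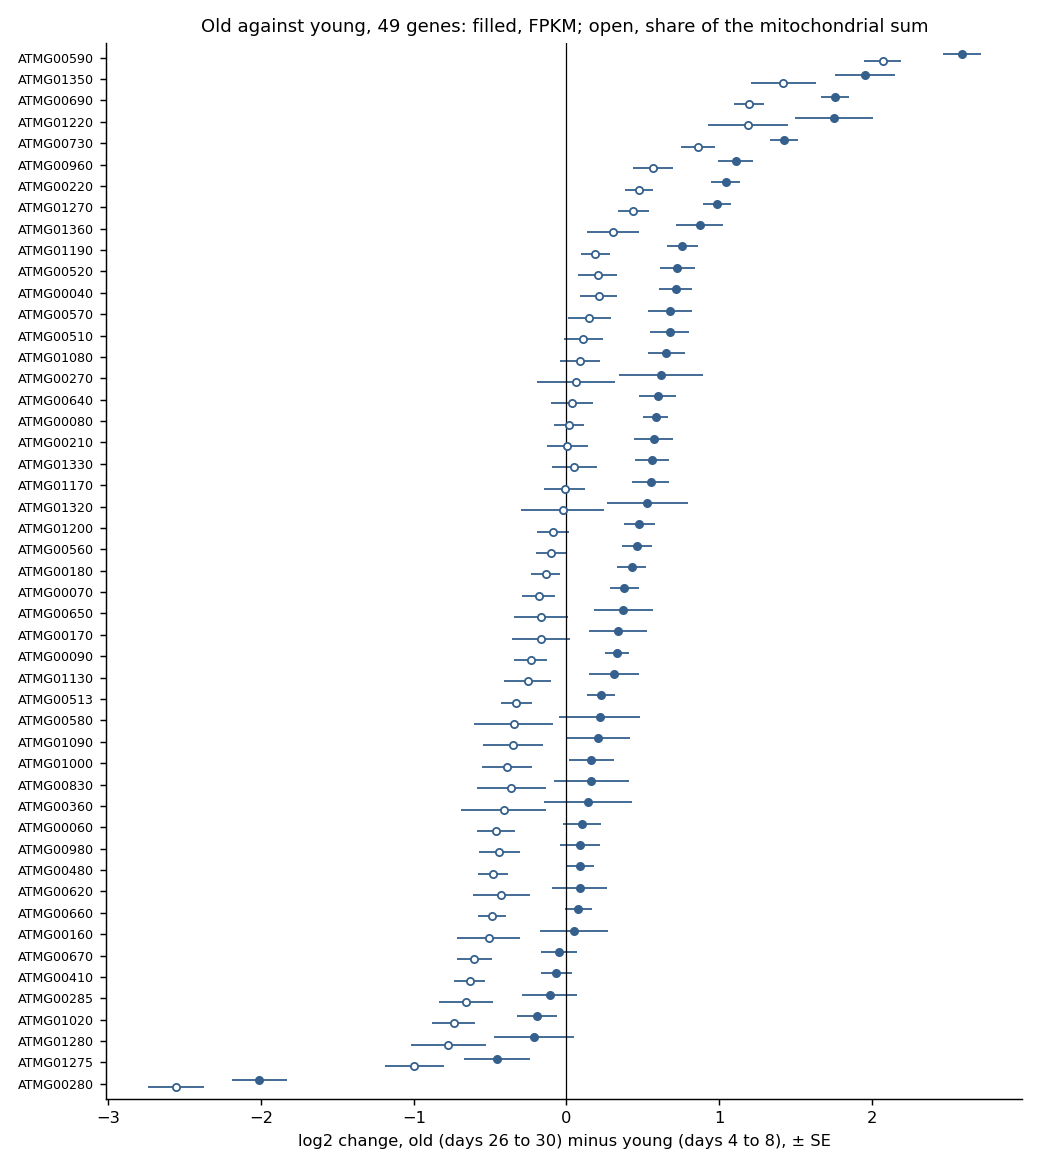
Change from limma (log2, old minus young, bars ± SE) of the 49 tested genes with a mean of at least 10 FPKM, in order of size; filled points are FPKM and open points the same change after each library was scaled to its mitochondrial sum. ATMG00590 leads at 2.59 and ATMG00280 stands lowest at -2.01 on the FPKM scale, and every open point lies left of its filled one.

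Smaller rises passed for many genes of middle and high level. ATMG00510 averaged 246 FPKM in old and 161 FPKM in young leaves (0.68, adjusted p = 8.12e-05), ATMG01080 254 and 168 FPKM (0.66, adjusted p = 6.28e-05), and ATMG00640 85.1 and 58.3 FPKM (0.60, adjusted p = 0.000175). ATMG00080 averaged 202 and 133 FPKM (0.58, adjusted p = 1.89e-06), and ATMG01200 377 and 255 FPKM (0.48, adjusted p = 0.000301). ATMG00070 averaged 79.3 and 60.9 FPKM (0.38, adjusted p = 0.00108), and did not pass scaled to the nuclear sum (0.13, adjusted p = 0.31). The signs of ATMG00070 (-0.0846), ATMG00290 (-0.15), ATMG00513 (-0.34), ATMG00520 (-0.029), ATMG00570 (-0.080) and ATMG00270 (-0.0032), all higher as deposited, turned under quantile normalization. ATMG00640 did not pass under it, and the call on ATMG00270 was lost in 23 of the alternative settings.

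Other genes of high level did not pass. ATMG00480 held 551 ± 145 FPKM in old and 508 ± 76.7 FPKM in young leaves (0.09 ± 0.09, adjusted p = 0.365). ATMG00410 held 245 ± 41.1 and 256 ± 45.3 FPKM (-0.07 ± 0.10, adjusted p = 0.542), and ATMG00660 averaged 104 and 96.6 FPKM (0.08, adjusted p = 0.403). ATMG01130 averaged 145 and 118 FPKM (0.31, adjusted p = 0.0804) and passed with the library of day 4 in set 1 left out (0.55, adjusted p = 1.1e-05).

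The only gene that fell was ATMG00280. It had 6.37, 12.9 and 18.3 FPKM in old libraries, against 27.2, 53.5 and 95.2 FPKM in young libraries. All old libraries lay below all young ones (-2.01 ± 0.18, adjusted p = 5.16e-09). In set 2 the fall was steepest early, with 95.2, 70.6, 48.9 and 32.6 FPKM at days 4, 6, 8 and 10.

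ATMG01275 had a lower mean in old leaves, 15.1 ± 5.54 FPKM, against 23.1 ± 16.9 FPKM in young leaves, and did not pass (-0.46 ± 0.22, adjusted p = 0.0561). Its young mean is raised by 1 library, day 4 in set 1, with 57.0 FPKM where the other 5 held 12.0 to 21.9 FPKM. ATMG00830 likewise had 56.9 FPKM in that library and 6.28 to 11.4 FPKM in the other young ones. It averaged 14.0 ± 5.23 FPKM in old and 16.7 ± 19.8 FPKM in young leaves (0.16, adjusted p = 0.542), and passed as higher with that library left out (0.54, adjusted p = 0.000779).

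In all, 14 of the 91 genes had every old library above every young one and 1 had every old library below, where 43.3% and 13.0% of all tested genes did. Besides those described, the 14 hold the low genes ATMG00910, ATMG01060 and ATMG01260. In mature against young leaves 10 genes were separate and above and 0 below, where 32.5% and 7.23% of all tested genes were. In old against mature leaves 8 were above and 0 below, where 32.6% and 15.8% were.

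By maturity 44 of the 91 genes were higher than in young leaves and 4 lower, where 51.6% and 16.7% of all tested genes were, with median changes of 0.31 and 0.32. ATMG01220 (1.17), ATMG00590 (1.10), ATMG00040 (1.04) and ATMG01270 (0.93) led. ATMG01270 averaged 36.6 ± 4.01 FPKM in mature and 18.8 ± 3.09 FPKM in young leaves, without overlap (adjusted p = 1.14e-07). The 4 lower genes were ATMG00280, ATMG00270, ATMG00830 and ATMG01275. With the library of day 4 in set 1 left out, the last 3 did not pass (adjusted p = 0.104, 0.157 and 0.182).

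From maturity on fewer genes passed. In old against mature leaves 27 were higher and 7 lower, where 48.3% and 27.1% of all tested genes were, with median changes of 0.22 and 0.26. ATMG00590 led again (1.49, adjusted p = 3.66e-09), followed by ATMG00270, with 47.7 ± 18.6 FPKM in old and 21.2 ± 11.5 FPKM in mature leaves (1.26, adjusted p = 0.000476). ATMG00900 averaged 13.3 ± 3.59 FPKM in old and 5.87 ± 1.03 FPKM in mature leaves (1.04, adjusted p = 9.38e-07). The 7 lower genes were ATMG00280, ATMG01020, ATMG00980, ATMG00670, ATMG01150, ATMG00040 and ATMG00430. Of these, ATMG01150 and ATMG00430 averaged only 1.14 and 1.12 FPKM over all libraries and stood within 1% of each other in 26 of 28. ATMG00980 averaged 12.3 FPKM in old and 15.9 FPKM in mature leaves (-0.46, adjusted p = 0.00389). With narrower stages only ATMG00280 stayed lower, and the calls on ATMG00980 and the rest were lost. ATMG00040 was not lower at every old age. By the mean of the sets it was highest at day 26, with 19.7 FPKM, and lowest at day 30, with 3.98 FPKM. ATMG01020 averaged 20.1 FPKM at day 28 and 5.28 FPKM at day 30.

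Over the whole time course most genes were highest late but not at the last age. By the mean of the sets, 77 of the 91 (84.6%) were highest at day 22, 24, 26 or 28, as were 37.2% of all tested genes. Only 1 was highest at day 30, where 28.3% of all tested genes were. Of the 91, 20 were lowest at day 30, 28 at day 4 and 21 at day 8. Of all tested genes 27.3%, 45.6% and 6.96% were lowest at these days. No test was made on these counts.

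**Figure D3:**
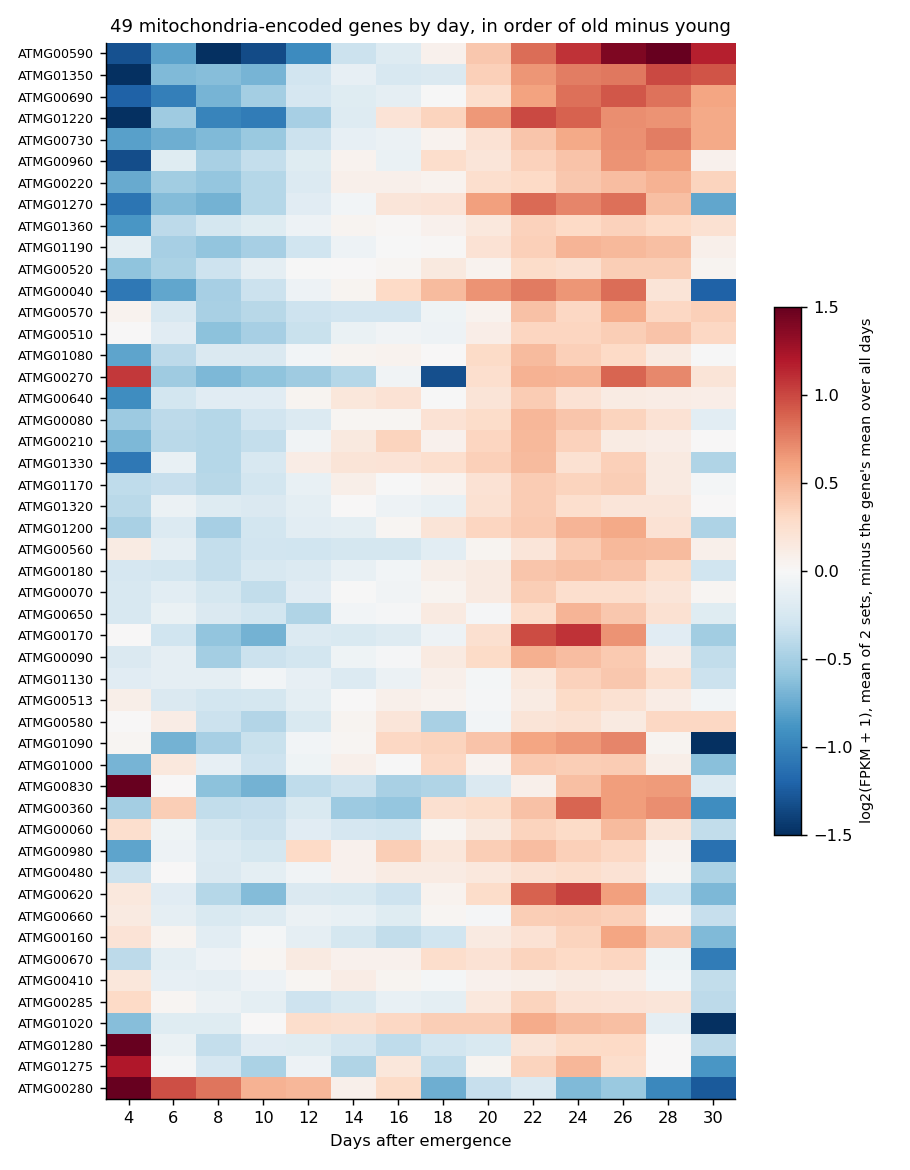
Heat map of the 49 tested genes with a mean of at least 10 FPKM by days after emergence; colour is log2(FPKM + 1), the mean of the 2 sets, minus the gene's mean over all days. Red cells gather at days 22 to 28 in most rows, ATMG00590 and ATMG00730 stay red at day 30, and ATMG01020, ATMG00040 and ATMG01270 turn blue there.

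Between day 28 and day 30 no mitochondrial gene was higher and 20 of the 91 were lower, where 9.01% of all tested genes were higher and 21.8% lower. The median change was -0.44 for the 91 and -0.18 for all tested genes. At an unadjusted p under 0.05 in limma, 0 were higher and 31 lower. With either library of day 4 left out, 34 were lower, and with that of day 28 in set 1 left out, 10.

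The deepest of these falls was in ATMG01020. It had 3.67 FPKM in set 1 and 6.89 FPKM in set 2 at day 30, against 19.3 and 20.9 FPKM at day 28 (-1.79 ± 0.23, adjusted p = 1.82e-05). ATMG01270 had 20.1 and 18.1 FPKM at day 30, against 47.0 and 45.8 FPKM at day 28 (-1.24 ± 0.16, adjusted p = 2.09e-05). In both genes both day 30 libraries lay below both day 28 libraries, and the mean of the sets was highest at day 22, so their levels were already below the maximum at day 28.

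ATMG01090 averaged 14.5 FPKM at day 30, against 45.9 FPKM at day 28 (-1.61, adjusted p = 0.00275), ATMG00040 3.98 and 12.2 FPKM (-1.43, adjusted p = 2.31e-05), and ATMG00980 5.74 and 14.2 FPKM (-1.15, adjusted p = 0.000922). The abundant gene ATMG00480 averaged 411 FPKM at day 30, against 581 FPKM at day 28 (-0.48, adjusted p = 0.0302). That call on ATMG00480 was lost without the filter, scaled to the nuclear sum, without the term for set, and with 3 of the 4 libraries of days 28 and 30 left out in turn, with adjusted p between 0.0509 and 0.322. ATMG00730, with 340 and 337 FPKM at day 30, against 412 and 367 FPKM at day 28, did not pass (-0.20, adjusted p = 0.388). Neither did ATMG00220 (-0.17, adjusted p = 0.485) or ATMG01360 (-0.07, adjusted p = 0.883).

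**Figure D4:**
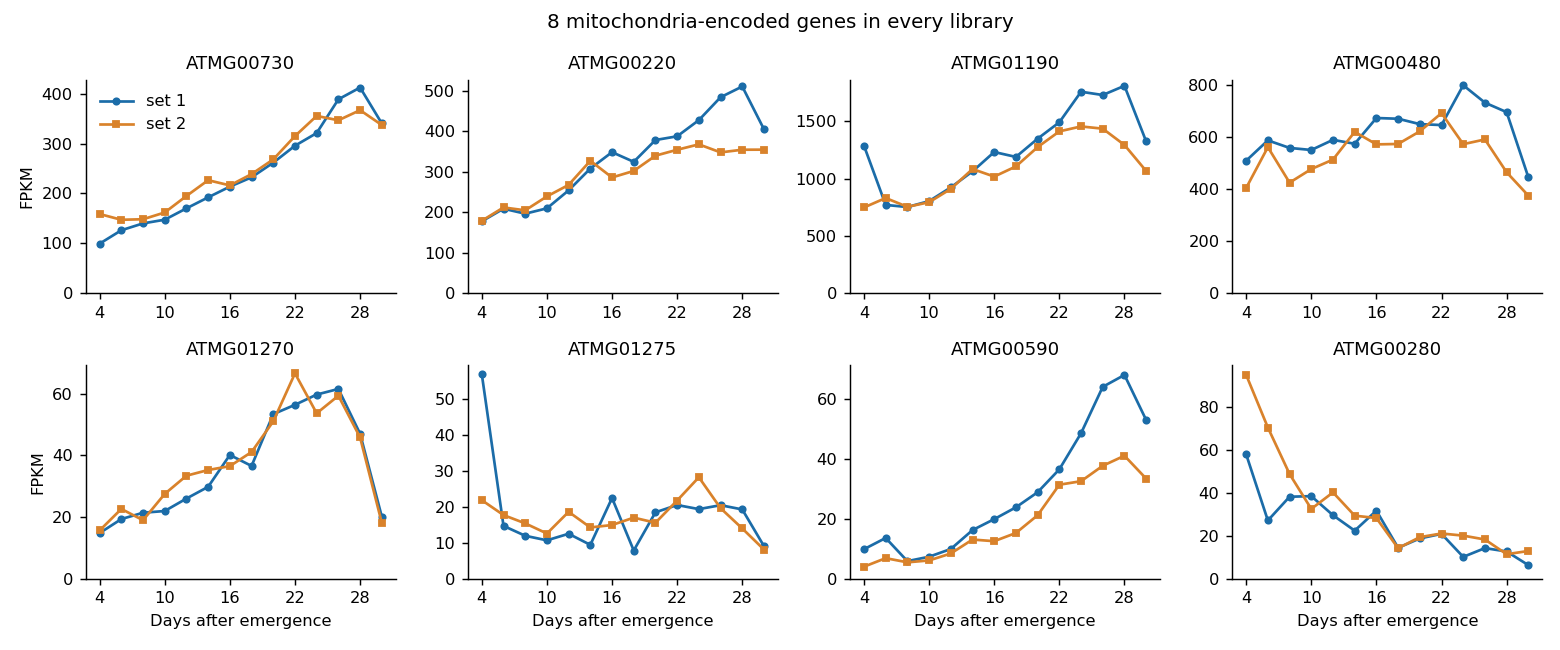
FPKM in every library by days after emergence for 8 mitochondria-encoded genes, with a line per set. ATMG00730 stands at 340 and 337 FPKM at day 30, ATMG01270 drops to 20.1 and 18.1 FPKM at day 30, ATMG01275 reaches 57.0 FPKM in the library of day 4 in set 1, and ATMG00280 declines.

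As a share of the mitochondrial sum 59 of the 91 genes did not pass in old against young leaves. Shares add up to a fixed total, so a rise of some entails a fall of others. With each library scaled to its mitochondrial sum, 17 of the 91 were higher and 15 lower in old against young leaves, where 44.2% and 34.1% of all tested genes were on the same scale. ATMG00590 made up 0.663% of the sum in old and 0.153% in young leaves (2.07, adjusted p = 4.23e-12), and ATMG00690 2.77% and 1.22% (1.20, adjusted p = 6.96e-10). The share of ATMG00730 was 4.27% to 5.98% in old libraries, against 1.80% to 3.39% in young libraries, with no overlap (0.86 ± 0.11, adjusted p = 6.12e-07). That of ATMG00220 averaged 5.57% and 3.99% (0.48, adjusted p = 0.000113).

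Shares of ATMG00900 (0.88), ATMG00610 (0.89), ATMG00516 (0.63), ATMG00960 (0.57) and ATMG01270 (0.44) also passed as higher, but the signs of these 5 turned under quantile normalization on this scale. ATMG00516 did not pass with the library of day 4 in set 1 left out (0.56, adjusted p = 0.073).

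The shares that fell were led by ATMG00280 (-2.56, adjusted p = 1.05e-10), ATMG01275, ATMG01280 (-0.77) and ATMG01020 (-0.74). The share of ATMG01280 was highest in the library of day 4 in set 1, at 6.13%, where its mean over the 28 libraries was 1.10%. ATMG01275 averaged 0.199% in old and 0.456% in young leaves (adjusted p = 9.93e-05). It too was highest in that library, at 1.04%, and its call was lost with narrower stages and with set 1 alone. Genes with level FPKM lost share, as they must where the sum itself is higher. ATMG00410 took 2.96% to 3.66% in old libraries, against 4.70% to 6.31% in young libraries, without overlap (-0.63, adjusted p = 1.2e-05). ATMG00480 took 6.66% to 8.05% in old libraries, against 8.65% to 12.0% in young libraries, also without overlap (-0.48, adjusted p = 0.000186), though its sign turned under quantile normalization (0.035).

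The share of the leading gene, ATMG01190, was 19.5 ± 0.693% in old and 17.2 ± 3.03% in young leaves and did not pass (0.19, adjusted p = 0.0756). It took 23.4% in the library of day 4 in set 1, and passed with that library left out (0.27, adjusted p = 0.00661).

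Scaled to the nuclear sum, 40 of the 91 genes were higher and 4 lower in old against young leaves, where 55.5% and 29.8% of all tested genes were, with median changes of 0.33 and 0.42. ATMG00730 changed by 1.18 (adjusted p = 7.15e-12), ATMG00900 by 1.15, ATMG00220 by 0.80, ATMG01270 by 0.75 and ATMG01190 by 0.51 (adjusted p = 0.00333). The 4 lower genes were ATMG00280 (-2.25), ATMG01275 (-0.69, adjusted p = 0.0179), ATMG01020 (-0.43) and ATMG00410 (-0.31, adjusted p = 0.0438). The library of day 4 in set 1 had a nuclear sum of 240288 FPKM, and the other 27 had at least 358205 FPKM. This scaling therefore raises its values most. ATMG01275 (57.0 FPKM) and ATMG00410 (347 FPKM) were already far above the other young libraries in it. No fit on this scale left that library out. On this scale 30 were higher and 8 lower in mature against young leaves, where 47.1% and 21.3% of all tested genes were, and 19 and 11 in old against mature leaves, where 46.1% and 30.5% were.

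The ribosomal RNA genes took a course of their own. ATMG00020 had 22.7, 36.4, 74.1, 92.0, 161.7 and 217 FPKM in set 2 at days 4, 8, 14, 20, 26 and 30. In set 1 it had 1224 and 307 FPKM at days 4 and 6, but 30.1 FPKM at day 8, 85.4 FPKM at day 20 and 194 FPKM at day 30. At day 30, where the mitochondrial sum was lower again, ATMG00020 was at its highest since day 8 in both sets. ATMG01390 had 19.9 and 26.9 FPKM at day 30 in sets 1 and 2, 6.94 and 8.36 FPKM at day 8, and 476 FPKM at day 4 in set 1. ATMG01380 was listed at 0 in 25 of 28 libraries.

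Neither ATMG00020 (1.07 ± 0.63, adjusted p = 0.121) nor ATMG01390 (0.02 ± 0.66, adjusted p = 0.981) passed in old against young leaves. With the library of day 4 in set 1 left out, ATMG00020 passed at 2.01 (adjusted p = 0.000126) and ATMG01390 at 1.04 (adjusted p = 0.0162). In that library the 3 rRNA genes together came to 30.9% of the mitochondrial sum, and in its counterpart in set 2 to 0.630%. Its part in the young values of other genes was not tested.

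Sequence shared with the nuclear genome limits what a value of 1 gene can mean. Arabidopsis carries a large insertion of mitochondrial DNA in chromosome 2, and the labels do not say how reads that fit both places were divided. The 51 genes of that region listed for this comparison summed to 70.6% to 83.6% of the mitochondrial sum. They came to 5740 ± 899 FPKM in old and 3746 ± 241 FPKM in young leaves, and 29 of the 47 tested were higher and 3 lower, where 60.0% and 25.5% of all tested genes were. Under quantile normalization 18 were higher and 11 lower.

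Some of these genes could hardly be told from a mitochondrial one. AT2G07707 stood within 5% of ATMG00480 in 26 of 28 libraries, with means of 580 and 577 FPKM, and AT2G07718 within 5% of ATMG00590 in 18 of 28, with means of 24.2 and 24.1 FPKM. In all 5 of the 91 genes had such a partner in at least 14 libraries, the others being ATMG00440, ATMG00540 and ATMG01140. This search compared levels and not sequences, so it cannot show that the remaining genes share no reads with that region. Within the mitochondrial genome ATMG00430 and ATMG01150 stood within 1% of each other in 26 of 28 libraries, and ATMG00440 and ATMG01140 in 25 of 28, so neither pair counts as independent genes. Whether counting used the strand is not stated, so sense and antisense reads cannot be told apart.

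The nuclear genome encodes the rest of the respiratory chain. Listed for this comparison were 23 nuclear genes of the respiratory complexes, cytochrome c and the ATP synthase that carry a symbol in RefSeq. The list is uneven, with 6 genes for succinate dehydrogenase and 1 for cytochrome c oxidase. Of the 23 genes 7 were higher and 5 lower in mature against young leaves, where 51.6% and 16.7% of all tested genes were. Their median change was 0.06, beside 0.31 for the 91 mitochondrial genes. The counts and the sign of this median differed in other settings, with 4 higher and 10 lower scaled to the nuclear sum (median -0.08), 3 and 12 under quantile normalization (-0.25), and 5 and 11 without day 4 (-0.14). In old against mature leaves 17 of the 23 were higher and 0 lower, where 48.3% and 27.1% of all tested genes were, with a median of 0.51, beside 0.22. At an unadjusted p under 0.05 in limma the counts were the same, 17 and 0, and under quantile normalization 13 were higher and 2 lower (median 0.27, beside 0.06). The difference between the genomes was not tested.

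**Figure D5:**
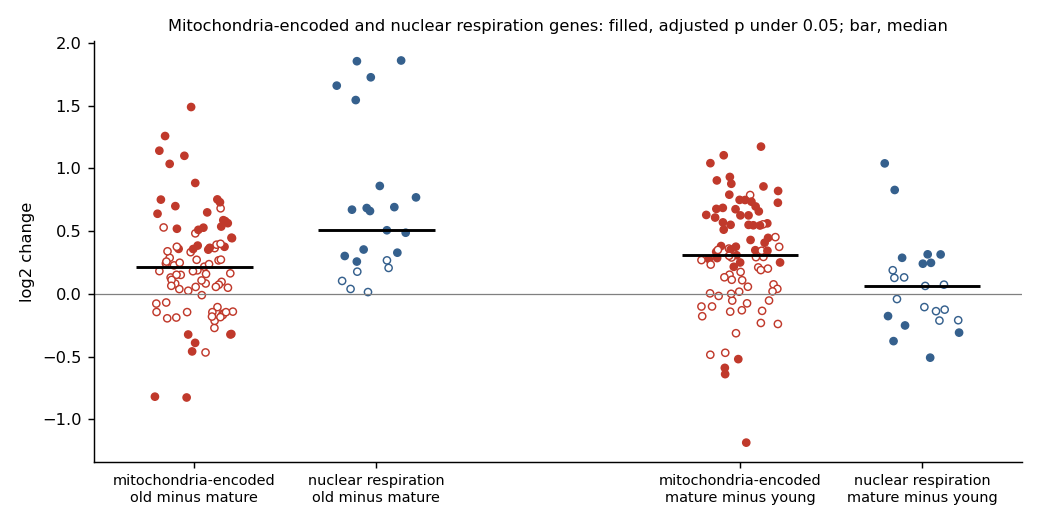
Change (log2, limma) of the 91 tested mitochondria-encoded genes and of 23 nuclear respiration genes, in old against mature and in mature against young leaves; each point is a gene, filled where the adjusted p is under 0.05, and bars are medians. The nuclear median is 0.51 in old against mature and 0.06 in mature against young leaves, and the mitochondrial medians are 0.22 and 0.31.

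All 6 nuclear genes listed for succinate dehydrogenase, the enzyme that feeds electrons from the citric acid cycle into the chain, were higher in old against young leaves (median 1.74). Of all tested genes 60.0% were higher in this comparison. Under quantile normalization 5 of the 6 were higher and 0 lower (median 1.08). SDH1-1 (AT5G66760) averaged 89.2 FPKM in old and 20.4 FPKM in young leaves (1.98, adjusted p = 1.26e-12), and SDH2-1 (AT3G27380) 43.5 and 9.43 FPKM (1.97, adjusted p = 2.41e-13). The cytochrome c oxidase subunit gene COX6B (AT1G22450) was lower, with 26.3 FPKM in old and 36.6 FPKM in young leaves (-0.49, adjusted p = 8.48e-06). In mature against young leaves GAMMA CAL2 (AT3G48680), a carbonic anhydrase-like gene, was higher (1.04) and the RNA helicase gene PMH1 (AT3G22310) lower (-0.66). The cytochrome c gene CYTC-2 (AT4G10040) led in old against mature leaves, with 34.5 and 8.44 FPKM (1.86, adjusted p = 2.2e-11).

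At day 30 against day 28, where no mitochondrial gene was higher, 4 of the 23 were higher and 2 lower, where 9.01% and 21.8% of all tested genes were; scaled to the nuclear sum and also without day 4, 4 were higher and 5 lower. Among the higher was SDH2-1, with 69.4 FPKM at day 30 and 36.6 FPKM at day 28 (0.90, adjusted p = 0.000271). Of 10 nuclear genes listed for mitochondrial transcription, splicing and editing, 5 were higher and 0 lower in old against young leaves, where 60.0% and 25.5% of all tested genes were, and 0 were higher and 4 lower at day 30 against day 28, where 9.01% and 21.8% were. By unadjusted p in limma the counts were 5 and 0, and 0 and 5. In old against young leaves 3 were higher and 1 lower scaled to the nuclear sum, and 1 and 4 under quantile normalization, which also left 1 lower at day 30. The steepest of these 4 falls was that of the RNA editing factor gene MORF8 (AT3G15000), by -1.08 (adjusted p = 0.000953).

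The sets did not agree on every mitochondrial gene. In old against young leaves 22 of the 91 changed in opposite directions in the sets, for 3 of them by more than 0.5 in each. These were ATMG00160, with 0.77 in set 1 and -0.67 in set 2, ATMG00360, with 0.99 and -0.70, and ATMG00580, with 1.01 and -0.58. None of the 3 passed in the fit over both sets.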

How the data were processed

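Total RNA was measured in 28 libraries of wild-type leaf. The authors deposited FPKM per transcript in 1 table for each set; the submitters' processing notes name TopHat 1.4.0, Cufflinks and TAIR10. The 41673 transcripts were summed to 33604 genes. Members and lists were chosen with earlier results of these data known. Named by rule are 38 listed members, the 5 highest and the 5 largest rises and falls among the others, the rRNA genes, and the 2 largest rises and falls of the nuclear lists per comparison. Those lists were cut to genes with a RefSeq symbol after their values were seen, and the products by which members had been listed are not given, since no table used here pairs them. Other members named were chosen after their values were seen.

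Values were tested as log2(FPKM + 1) with limma 3.58.1 (trend, R 4.3.3) for genes at 1 FPKM or more in 2 or more libraries. Day was a factor, and set a term because each set has its own table. Benjamini-Hochberg adjustment ran over all 18239 genes, threshold 0.05. A fold change on this scale understates the change of low genes. Python 3.11.15 with pandas 2.3.3 served for descriptions. On simulated data for old against young over 18239 genes, 88% of changes of 1 on the log2 scale were found, but only 44% of falls and 48% of rises of 0.5. The simulation changed 50 genes for each size and direction, none of low mean level, and left the other 18039 unchanged. In the real data far more genes passed, so the adjusted threshold differed. The simulated rates may therefore not hold here, and low genes were not tried. Small RNA libraries were not used.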

Additional observations from a re-analysis of the deposited data

Results flagged for a closer look

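In 122 groups of 6 libraries (a stage of a listed or rRNA gene or of a sum), 13 held a library whose gap to the nearest of the others was large against the range of the group, where chance gives about 1 in 20, or 6.1. The library of day 4 in set 1 accounts for 10 of them, all in the young stage. There the rRNA genes ATMG00020, ATMG01390 and ATMG01380 stood at 1224, 476 and 2.10 FPKM, against highest values of 307, 62.6 and 0 FPKM in the other 5 young libraries. ATMG01190 stood at 1288 FPKM, ATMG00410 at 347 FPKM, ATMG01275 at 57.0 FPKM, ATMG00830 at 56.9 FPKM and ATMG00570 at 20.3 FPKM, against highest values of 831, 249, 21.9, 11.4 and 11.4 FPKM in the others. ATMG01360 was low in it at 147 FPKM, against a lowest value of 395 FPKM in the others. The mitochondrial sum was 2.29% of the nuclear sum in it, against at most 1.38% in the others.

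The remaining 3 lie elsewhere. ATMG00210 stood at 222 FPKM at day 16 in set 1, against 138 to 164 FPKM in the other mature libraries. ATMG00830 stood at 8.69 FPKM at day 14 in set 2, against 6.85 to 7.48 FPKM in the others. ATMG01120 stood at 6.46 FPKM at day 28 in set 1, against 2.57 to 4.00 FPKM in the other old libraries.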

How the results depend on the processing

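Over all genes tested, the median change in old against young leaves was 0.59 as deposited, 0.42 scaled to the nuclear sum and 0.10 after quantile normalization. Quantile normalization gave 30 higher and 11 lower in old against young, 26 and 8 in mature against young, 15 lower in old against mature, and 8 higher and 50 lower for shares of the mitochondrial sum; over all genes it gave 44.4% higher and 38.6% lower in old against young leaves. Scaled to the nuclear sum, 4, 8 and 11 members were lower in old against young, mature against young and old against mature. In old against young leaves 2 members were lower without day 4. In mature against young leaves 2 were lower without the filter, 2 without the term for set, and 1 each without day 4 and with narrower stages. In old against mature leaves 1 was lower with narrower stages. At day 30 against day 28, 34 were lower without day 4. For shares, 25 were lower without day 4 and 9 with narrower stages. With set 1 alone, 23 were higher in old against young, 6 higher and 0 lower in mature against young, 7 and 0 in old against mature, and 8 and 1 for shares; with set 2 alone, 25 and 2, 10 and 2, and 12 and 0 in the first 3 of these. At an unadjusted p under 0.05 in limma, the 0 counts became 0 and 1 in set 1 and 1 in set 2.

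Leaving out 1 library in turn gave 63 to 80 members changed over all days, 49 to 59 higher and 1 to 5 lower in old against young, 34 to 52 and 1 to 7 in mature against young, 20 to 33 and 5 to 9 in old against mature, 0 and 10 to 34 at day 30, and 16 to 28 and 13 to 21 for shares; leaving out the library of day 4 in set 1 gave 80, 59, 52, 33, 9, 34 and, for lower shares, 21. Leaving out that of set 2 also gave 80, 33, 9, 34 and 21, and gave 5 and 7 lower in old and in mature against young and 28 higher shares. Leaving out day 14 in set 1 gave 1 lower in mature against young.

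Signs turned under quantile normalization for ATMG00513 (-0.34), ATMG00270 (-0.0032), ATMG00070 (-0.0846), ATMG00290 (-0.15), ATMG00520 (-0.029) and ATMG00570 (-0.080) in old against young, for ATMG00900 (-0.0717) in mature against young, and for ATMG00516 (-0.21), ATMG00480 (0.035), ATMG00900 (-0.13), ATMG00960 (-0.52), ATMG01270 (-0.60) and ATMG00610 (-0.020) as shares. The sign of ATMG00513 turned scaled to the nuclear sum (-0.015) and that of the share of ATMG00160 with set 1 alone (0.091). Of the remaining values of genes named by rule in these settings, 690 kept their direction and call, and 186 kept the direction without passing. With 1 library left out in turn, 2745 kept both and 167 kept the direction without passing. The causes were not tested.

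Deviations of same-set libraries at 2 days correlated between -0.146 and 0.650, with a median of 0.226 and over 0.1 for 66 of 91 pairs of days. Since not every pair was over 0.1, these correlations were not read as proof that same-set libraries belong together. The main fit still holds set as a term, so its p-values compare days within a set. Without the replicate block 50, 41 and 31 members passed in the 3 stage comparisons, all among the 53, 48 and 34 that passed with it. A planned sum without tRNA genes was not run, because the tables used here do not pair ATMG identifiers with tRNA. Depth is unknown, and genes near 1 FPKM have compressed changes.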
